A study of Mus musculus with 2 samples.

Results

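Monocytes of mouse tibialis anterior (TA) muscle were picked from single-cell RNA libraries by their raw transcript counts, with unique molecular identifiers (UMIs) standing for single RNA molecules. A cell barcode was taken as a monocyte where Ccr2, Chil3, Ly6c2 and Csf1r together gave at least 3 UMIs and at least 2 of these genes were seen. C1qa, C1qb, C1qc and Mrc1, which mark resident macrophages, could give at most 4 UMIs in all, and Cd3e, Cd79a, Cdh5 and Pdgfra, which mark T cells, B cells, endothelium and fibro-adipogenic progenitors, had to be at 0. The rule found 163 monocytes among 27383 kept barcodes, 118 of 17651 in the library labelled KO and 45 of 9732 in the library labelled WT. The 4 genes of the rule are therefore described and are not findings, and C1q and Mrc1 were held low by the choice itself.

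The study asked whether mesenchymal progenitors of muscle depend on the IGF-I they make themselves. Each genotype, KO and WT, gave 1 library, built by droplet capture of 3' RNA ends (10x Genomics GEM-X) on 10 TA muscles pooled from 5 male mice. The muscle was digested with collagenase and dispase, red cells were lysed and dead cells excluded with propidium iodide. Both libraries are labelled as batch 1 and as fibro-adipogenic progenitors ("FAPs"), and both carry the tag "ND", which the labels do not spell out. The labels do not say which gene part was removed, in which cells, by which promoter, or at what age the mice were used. With 1 library per genotype there is no replicate and no test between genotypes: every interval below covers counting error at 95% and says nothing about the spread between mice.

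Monocytes leave the bone marrow for the blood and enter tissues, where they can become macrophages or dendritic cells. Mouse monocytes run from classical cells, rich in Ly6C and CCR2, which enter inflamed and injured muscle, to nonclassical cells, low in Ly6C and dependent on the nuclear receptor Nr4a1, which patrol the vessel wall. Cells between these ends, and those turning into antigen-presenting cells, carry major histocompatibility complex (MHC) class II on their surface. Resident muscle macrophages, in contrast, express complement C1q and the mannose receptor.

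Stretches just upstream of the start site are printed here for members of 2 gene groups. Ly6c2 and Chil3, which belong to the rule, are the paired markers of classical monocytes. H2-Aa and H2-Eb1 are class II genes that were far lower in KO monocytes. The 250 bases come from RefSeq on GRCm38.p6, 5' to 3' on the gene's own strand: Ly6c2 is chr15:75111972-75112221 (minus strand, the first of 2 listed promoters), Chil3 chr3:106167565-106167814 (minus), H2-Aa chr17:34287824-34288073 (minus) and H2-Eb1 chr17:34305617-34305866 (plus). Capitals mark AGGAAGT, the site of the myeloid factor PU.1, in the first pair, and CCAAT, the Y box of class II promoters, in the second pair, each on either strand, and in H2-Eb1 also the core of the X box.
Ly6c2: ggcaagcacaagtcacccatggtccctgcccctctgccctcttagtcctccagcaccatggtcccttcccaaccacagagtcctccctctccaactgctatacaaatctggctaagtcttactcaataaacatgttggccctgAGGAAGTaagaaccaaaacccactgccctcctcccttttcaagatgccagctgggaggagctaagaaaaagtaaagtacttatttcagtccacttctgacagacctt
Chil3: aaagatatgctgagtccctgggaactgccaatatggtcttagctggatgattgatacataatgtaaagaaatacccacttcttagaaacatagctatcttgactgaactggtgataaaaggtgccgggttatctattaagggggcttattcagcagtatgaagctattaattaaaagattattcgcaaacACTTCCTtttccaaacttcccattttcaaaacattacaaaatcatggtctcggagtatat
H2-Aa: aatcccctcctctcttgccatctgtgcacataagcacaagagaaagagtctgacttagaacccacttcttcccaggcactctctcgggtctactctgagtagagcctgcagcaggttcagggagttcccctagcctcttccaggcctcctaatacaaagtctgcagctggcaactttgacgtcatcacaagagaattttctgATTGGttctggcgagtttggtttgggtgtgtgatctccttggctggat
H2-Eb1: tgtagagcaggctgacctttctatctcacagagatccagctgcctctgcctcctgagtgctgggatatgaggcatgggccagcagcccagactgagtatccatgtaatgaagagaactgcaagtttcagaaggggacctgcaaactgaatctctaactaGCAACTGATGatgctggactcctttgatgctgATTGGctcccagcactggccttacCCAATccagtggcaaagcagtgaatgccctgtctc
Of 32851 mouse promoters cut to the same length, 7.69% hold AGGAAGT, 33.9% hold CCAAT and 0.161% hold the X box core, each on either strand, and no overlap with another motif was required. The letters do not follow the groups: among the other genes searched, AGGAAGT was also in a listed promoter of F13a1, Lyz2, Ifitm6 and the nonclassical gene Spn, and was in none of those of Ccr2, Plac8, Vcan, Ace, Adgre4 and Treml4. CCAAT was also in a listed promoter of H2-DMa and H2-DMb1, and of Plac8, Vcan, F13a1, Ace, Treml4, Ifitm6 and Chil3. A match is a string of letters and not a bound site, and these libraries measure no binding.

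The KO library was the deeper of the pair, and this touches every comparison below. Monocytes held 1651920 UMIs in the KO library and 327182 in the WT library, with a median of 14457 and 5933 UMIs per cell and of 3830 and 2355 detected genes. Over all kept barcodes the median was 4481 UMIs in the KO library and 3089 in the WT library. No barcode sequence of a monocyte occurred in both libraries, although 52 kept barcodes did. Mitochondrial UMIs made up 0.938% of monocyte UMIs in the KO library and 1.34% in the WT library. Levels are CPM, the UMIs of a gene per 1000000 UMIs summed over the cells named, and a fold is given as a log2 ratio after adding 5 CPM to both sides.

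Monocytes were 0.669% of kept barcodes in the KO library (Clopper-Pearson interval 0.554 to 0.800%) and 0.462% in the WT library (0.337 to 0.618%). After the UMIs of the KO library were thinned to the depth of the WT library the rule found 111 monocytes there, against 45 in the WT library. Resident macrophages, defined by at least 5 UMIs of C1qa, C1qb, C1qc and Mrc1, went the other way, at 80 cells (0.453%) in the KO library and 176 cells (1.81%) in the WT library. Neutrophils numbered 208 in the KO library and 54 in the WT library. Without monocytes that held at least 3 UMIs of 15 listed neutrophil genes, the monocyte share was 0.181% in KO and 0.411% in WT. At the edge of the rule, 9 KO and 4 WT members had exactly 3 UMIs of the 4 genes, and 18 KO and 4 WT barcodes missed it with 2 UMIs. The median sum was 29.5 UMIs in KO members and 6 in WT members. WT members thus lie closer to this edge. At the macrophage limit, 0 KO and 7 WT members had 3 or 4 UMIs of C1qa, C1qb, C1qc and Mrc1.

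Genes outside the rule gave the check of the label. Plac8, a small cysteine-rich protein of myeloid cells and the 1 label marker outside the rule, was at 1361 CPM in KO monocytes and 1027 CPM in WT monocytes, against 33.3 and 6.54 CPM in the macrophages of those libraries. It was seen in 102 of 118 KO cells (86.4%) and 30 of 45 WT cells (66.7%). T cells, a background for free RNA, held Plac8 in 7.81% of cells in the KO library and 7.53% in the WT library. Lyz2, the lysozyme gene of myeloid cells, reached 14454 CPM in KO monocytes and 7256 CPM in WT monocytes. In T cells of the same libraries that carried under 10 neutrophil UMIs, Lyz2 was at 1.09 and 2.62 CPM. Those cells had been chosen for low myeloid RNA: over all T cells, 17 of 128 (13.3%) in the KO library and 1 of 93 (1.08%) in the WT library had a UMI of Lyz2. Folr2, a gene of resident macrophages outside the rule, had no UMI in monocytes of either library, and Pf4 had 1 UMI in KO and 0 in WT monocytes.

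The 4 genes of the rule differed in level between the libraries. Ccr2, the receptor that draws monocytes out of the marrow, was at 965 CPM in KO monocytes and 345 CPM in WT monocytes. Chil3, a secreted chitinase-like protein, was at 1100 CPM in KO and 97.8 CPM in WT monocytes, and was seen in 66 KO cells and 13 WT cells. Ly6c2, which encodes the Ly6C surface antigen, was at 407 CPM in KO and 159 CPM in WT monocytes. Csf1r, the receptor for the survival factor M-CSF, was the exception, at 254 CPM in KO and 339 CPM in WT monocytes. Ly6c2 shares sequence with the endothelial gene Ly6c1: 18.3% of the 90-base windows of its main transcript also occur in a Ly6c1 transcript, so some Ly6c2 reads may have been assigned to either gene or dropped.

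**Figure D1:**
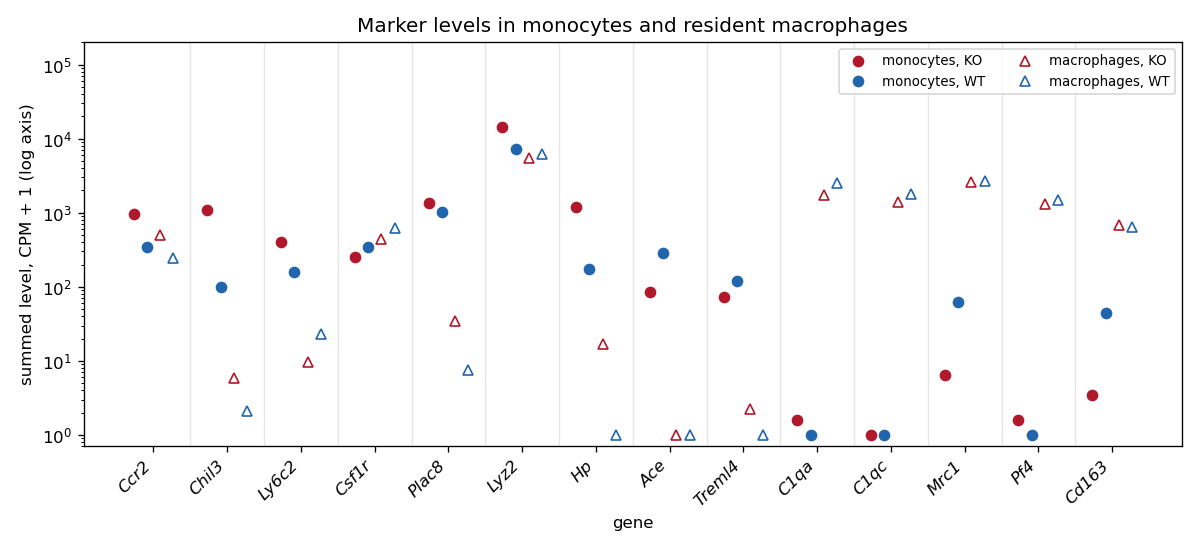
Summed level of 14 marker genes (x axis) in CPM plus 1 on a log axis (y axis), for monocytes (filled circles) and resident macrophages (open triangles) of the KO library (red) and the WT library (blue). Plac8 stands at 1361 and 1027 CPM in KO and WT monocytes and C1qc, a gene of the rule, at 0 in both, whereas Chil3 and Hp separate the KO from the WT monocytes and Ace lies lower in KO.

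The cells that met the rule spanned a range from Ly6c2- and Chil3-rich cells to cells with neither. Of 118 KO monocytes, 81 (68.6%, interval 59.5 to 76.9%) had at least 3 UMIs of Ly6c2 and Chil3 together, 21 had 1 or 2, and 16 had none. Of 45 WT monocytes, 14 (31.1%, 18.2 to 46.6%) had at least 3, 15 had 1 or 2 and 16 had none. These are stretches of a continuous measure and not cell types, and 18 KO and 6 WT cells had 2 or 3 UMIs, next to the upper limit. With every cell thinned to 2000 UMIs, 35 of 117 KO cells (29.9%) and 1 of 45 WT cells (2.22%) kept at least 3 UMIs. Without members holding at least 3 UMIs of 15 listed neutrophil genes, the unthinned share was 31.2% of 32 KO and 30% of 40 WT cells. Both genes belong to the rule and the cells were chosen at full depth, so these shares are a description.

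Genes of nonclassical monocytes showed the opposite order. At least 2 UMIs of Ace, Adgre4, Spn, Treml4, Cd300e and Ear2 together were found in 46 of 118 KO monocytes (39.0%) and 28 of 45 WT monocytes (62.2%). After thinning, at least 1 UMI was left in 26.5% of KO and 60% of WT cells. Their summed level per cell ran from 0 to 3884 CPM with a median of 58.9 CPM in KO monocytes, and from 0 to 5849 CPM with a median of 379 CPM in WT monocytes. Ranked by Ly6c2 and Chil3, KO cells with none had 1687 CPM of the 6 genes, those with 1 or 2 UMIs 947 CPM and those with at least 3 UMIs 141 CPM. The corresponding WT values were 953, 1779 and 702 CPM, which show no such steady fall.

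Transcripts of other cell types were also present. At least 2 UMIs of 10 defining dendritic cell genes (Flt3, Zbtb46, Xcr1, Clec9a, Cd209a, Mgl2, Ccr7, Siglech, Ccr9 and Irf4) were found in 20 KO monocytes (16.9%) and 12 WT monocytes (26.7%). Of these, 3 KO and 8 WT cells were among the 16 of each library with no UMI of Ly6c2 or Chil3. The name monocyte is that of the rule and is uncertain for cells with such transcripts. S100a8, S100a9 and Retnlg, the most abundant genes of neutrophils, gave at least 10 UMIs in 14 KO monocytes (11.9%) and in 0 of 45 WT monocytes, which by the limit of 3 counts allows a share of up to 6.67%. The richest KO member held 2099 UMIs of these neutrophil genes among 8141 in all. Summed over KO monocytes S100a8 was at 2871 CPM and S100a9 at 4407 CPM, at least 313-fold and 481-fold above the limit that no UMI in WT monocytes allows. The 15 listed neutrophil genes summed to 9919 CPM in KO and 134 CPM in WT monocytes, and all 10 of them that met the expression floors given below were at least 1.5-fold higher in KO. T cells differed in the same direction, with 13297 CPM in the KO library and 674 CPM in the WT library. Of 128 T cells in the KO library 18 held at least 10 neutrophil UMIs, against 1 of 93 in the WT library, whereas KO macrophages had 8.63 CPM of S100a8. The part that neutrophil RNA or captured cell pairs have in these values was not tested. The 8 listed muscle fibre genes summed to 99.9 CPM in KO and 633 CPM in WT monocytes. Of these, the actin gene Acta1 was at 32.7 CPM in KO monocytes, where 41 of 118 cells had a UMI, and at 174 CPM in WT monocytes, where 1 cell held 86% of its UMIs.

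**Figure D2:**
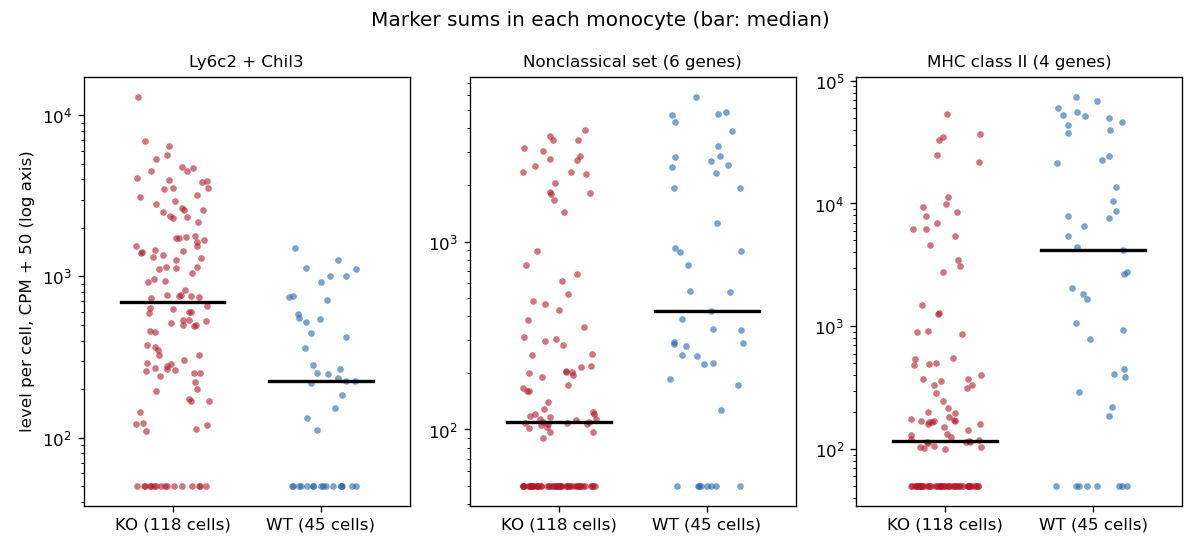
Level in each of 118 KO (red, left) and 45 WT (blue, right) monocytes of Ly6c2 plus Chil3, of the 6 nonclassical genes and of the class II genes H2-Aa, H2-Ab1, H2-Eb1 and Cd74, in CPM plus 50 on a log axis, with a bar at the median. Medians are 645 CPM in KO and 175 CPM in WT for Ly6c2 plus Chil3, 58.9 and 379 CPM for the nonclassical set, and 67.3 and 4157 CPM for class II, and all 3 measures overlap between the libraries.

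KO monocytes had more transcript of classical monocyte genes and of matrix and repair genes, and less of MHC class II and class I genes, than WT monocytes, as the list counts that follow give. Floors of 50 CPM in either library and of 30 UMIs in total left 4141 genes, of which 291 (7.03%) reached a 2-fold higher and 376 (9.08%) a 2-fold lower level in KO. The median log2 ratio over all of them was 0.02. Scaling by trimmed means (TMM) moved that median to 0.22 and the split to 426 higher and 278 lower genes. Because the KO monocytes hold more Ly6c2- and Chil3-rich cells, each ratio was also computed with the 3 ranges at equal weight in both libraries. The ranges are cut on raw UMIs, and cells of the top range held a median of 15560 UMIs in KO and 5985 in WT. A range therefore does not hold like cells in both libraries, and equal weight cannot be taken to even out the mix of cells. Of the 291 genes, 220 stayed at least 2-fold higher at equal weight and 215 did so among cells with at least 3 UMIs of Ly6c2 and Chil3. Of the 376 genes, 262 and 256 stayed at least 2-fold lower. Equal weight thus kept 75.6% of the higher and 69.7% of the lower genes. Fewer stayed 2-fold apart in the smaller ranges: among cells with 1 or 2 UMIs, 157 of the 291 (54.0%) and 150 of the 376 (39.9%), and among cells with none 188 (64.6%) and 213 (56.6%). Of the 376 genes, 247 were lower in KO to any extent among cells with 1 or 2 UMIs. Both sets of genes were called in these same cells, so the shares that stayed are a description and not a separate check. Chil3, Ly6c2 and Ccr2, genes of the rule, are among the 291.

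Thbs1, which encodes thrombospondin 1, a matrix protein that can activate latent TGF-beta, was at 5912 CPM in KO monocytes and 868 CPM in WT monocytes (log2 ratio 2.76, 2.60 to 2.94). Per cell Thbs1 ran from 0 to 16208 CPM with a median of 5713 CPM in KO, and from 0 to 6695 CPM with a median of 0 in WT. A UMI of Thbs1 was seen in 93 of 118 KO cells and 18 of 45 WT cells, and the cells of the libraries overlap. Neutrophils held Thbs1 at 1546 CPM in KO and 1289 CPM in WT, and T cells at 363 and 28.7 CPM.

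F13a1 and F10 encode the A chain of coagulation factor XIII and coagulation factor X. F13a1 was at 1467 CPM in KO and 165 CPM in WT monocytes (3.11, 2.76 to 3.57), and F10 at 381 and 58.1 CPM (2.61, 2.06 to 3.45). F13a1 is also a macrophage gene, at 1108 CPM in KO macrophages and 1290 CPM in WT macrophages. WT monocytes had the lowest level of the 4. Hp, which encodes the haemoglobin scavenger haptoglobin, was at 1205 CPM in KO and 174 CPM in WT monocytes (2.75, 2.41 to 3.20). It is abundant in neutrophils too, at 2470 CPM in KO and 2054 CPM in WT neutrophils. Without the 14 KO cells rich in neutrophil transcripts its ratio was 2.59, and that of Mxd1, an antagonist of MYC, 1.68 instead of 2.53.

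Other genes at this end were Chil3, Nrg1, Clec4d, Plcb1, Mxd1, Ms4a6d and Cd14. Nrg1, the neuregulin that signals through ErbB receptors, was at 591 CPM in KO and 61.1 CPM in WT monocytes (3.17, 2.64 to 3.99), although it was seen in 6 WT cells alone. Cd14, the co-receptor for bacterial lipopolysaccharide, was at 3869 CPM in KO and 944 CPM in WT monocytes (2.03, 1.87 to 2.20). Clec4d, a lectin receptor for microbial glycolipids, was at 671 CPM in KO and 94.7 CPM in WT monocytes (2.76, 2.31 to 3.39). Plcb1, a phospholipase C, was at 1673 and 324 CPM, and Mxd1, a dimer partner of MAX that opposes MYC, at 465 and 76.4 CPM in KO and WT monocytes. Chil3 defines the ranges and belongs to the rule, so it has no ratio by range. The genes were picked from the same cells, so their ratios by range are a description and not a separate check. The other 10 genes named at this end stayed at least 2-fold higher in KO at equal weight of the ranges, among cells with at least 3 UMIs of Ly6c2 and Chil3 and among cells with none, and 8 of the 10 did so among cells with 1 or 2 UMIs. Mxd1, Clec4d and Cd14 are also abundant in neutrophils, at 4416, 2522 and 4394 CPM in KO neutrophils. Cd14 was at 386 CPM in KO and 2.61 CPM in WT T cells.

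Among the 12 genes furthest below WT, H2-Aa, H2-Ab1, Cd74 and H2-DMb1 belong to MHC class II presentation, and Tnip3, described below them, had the lowest ratio. H2-Aa and H2-Ab1 encode the chains of the I-A molecule that shows peptides to helper T cells, and H2-Aa was at 433 CPM in KO and 4108 CPM in WT monocytes (-3.23, -3.38 to -3.11). H2-Ab1 was at 332 CPM in KO and 3118 CPM in WT monocytes, and H2-Eb1 at 202 and 2274 CPM. Cd74, the invariant chain that guards the peptide groove, was at 1218 CPM in KO and 8601 CPM in WT monocytes (-2.81, -2.90 to -2.74). H2-DMb1, part of the molecule that loads peptides, was at 78.1 and 367 CPM (-2.16, -2.60 to -1.86). Resident macrophages did not share this gap in size: H2-Aa was at 6014 CPM in KO and 7804 CPM in WT macrophages.

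Class II levels were spread very unevenly over cells. The sum of H2-Aa, H2-Ab1, H2-Eb1 and Cd74 was 2185 CPM over KO monocytes and 18100 CPM over WT monocytes. A KO cell had a median of 67.3 CPM, with 49 of 118 at 0 and a highest value of 53086 CPM. A WT cell had a median of 4157 CPM, with 8 of 45 at 0 and a highest value of 74067 CPM. Both libraries thus hold class II-high cells, and the WT library more of them per monocyte. Within cells that had no UMI of Ly6c2 or Chil3 the sum was 7286 CPM in KO and 30119 CPM in WT, within those with 1 or 2 UMIs 6267 and 15155 CPM, and within those with at least 3 UMIs 776 and 5462 CPM. The sum was lower in KO monocytes in each of the 3 ranges.

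Other genes lower in KO monocytes were Tnip3, Trerf1, Dapk1, Kcnn4, Kif21b, Bcl2a1b, Skint3 and Cd83. Tnip3, which binds A20 and dampens NF-kB signalling, was at 63.0 CPM in KO and 819 CPM in WT monocytes (-3.60, -4.04 to -3.37). Cd83, which keeps class II molecules on the surface of antigen-presenting cells, was at 108 CPM in KO and 526 CPM in WT monocytes (-2.23, -2.59 to -1.97). Bcl2a1b, an inhibitor of cell death of the Bcl2 family, was at 60.5 and 327 CPM, and reads of it may be shared with near-identical copies such as Bcl2a1d. Dapk1, a death-associated kinase, was at 17.6 and 134 CPM and Kcnn4, a calcium-activated potassium channel, at 8.47 and 70.3 CPM in KO and WT monocytes. Tnip3, Cd83 and Bcl2a1b are also macrophage genes, at 741, 1692 and 509 CPM in KO and 1276, 1624 and 718 CPM in WT macrophages. Kcnn4, Kif21b and Skint3 were lower in macrophages of both libraries than in WT monocytes. The part that WT members near the macrophage limit have in these ratios was not tested. All 12 genes of this end were at least 2-fold lower at equal weight of the ranges, and 11 among cells with at least 3 UMIs of Ly6c2 and Chil3, the exception being Kcnn4 at -0.13. Among cells with 1 or 2 UMIs 10 of the 12 stayed 2-fold lower and among cells with none 8 did. All 12 were lower in KO to some extent in both of these ranges. They were picked from the same cells, so this too is a description.

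**Figure D3:**
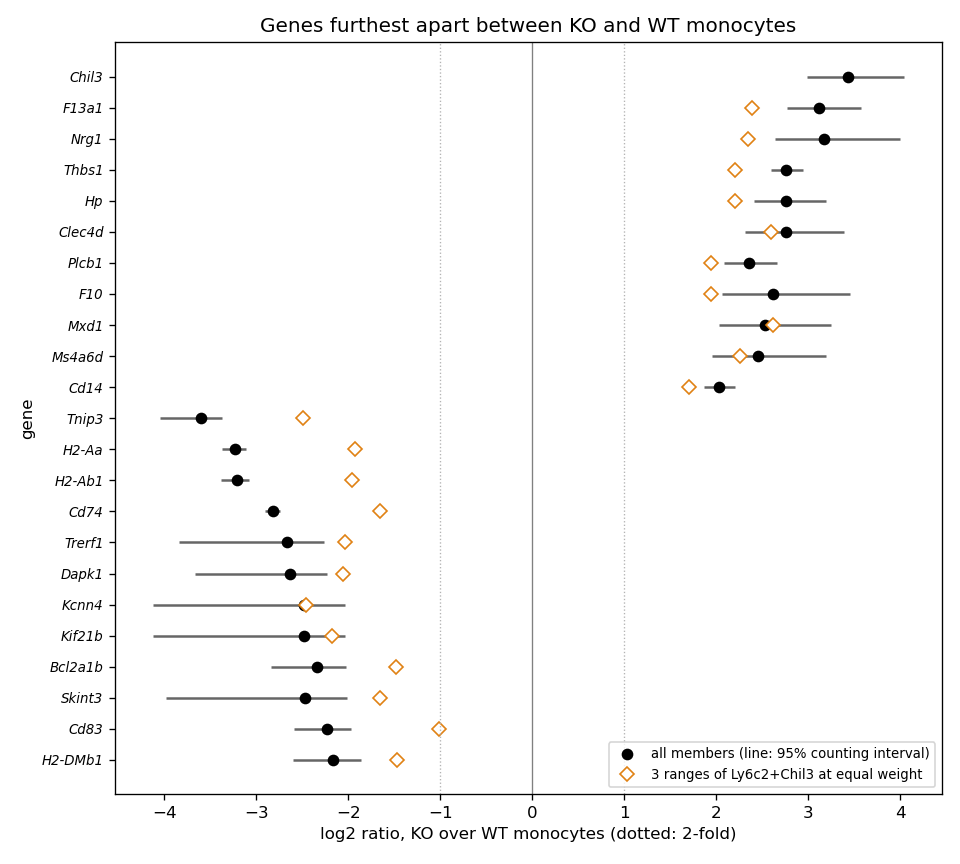
Log2 ratio of KO over WT monocytes (x axis) for the named genes furthest above and below 0 (y axis), with 95% counting intervals (lines) and the same ratio with the 3 ranges of Ly6c2 plus Chil3 at equal weight (open diamonds). Equal weight brings most genes closer to 0, as for Thbs1 with 2.76 and 2.20, and leaves each gene so computed past the dotted 2-fold lines; Chil3, which defines the ranges, has no diamond.

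Classical monocyte genes beyond the 4 label markers were higher in KO monocytes in nearly every case. All 19 listed genes passed the floors, 16 were at least 1.5-fold higher in KO, 0 were lower, and the median log2 ratio was 1.64. Over all 4141 genes 17.5% reached 1.5-fold above and 18% reached 1.5-fold below WT. The genes short of 1.5-fold were S100a4, S100a6 and Gpr141, at -0.43, 0.31 and 0.45. Vcan, the proteoglycan versican, was at 1640 CPM in KO and 97.8 CPM in WT monocytes, but 1 WT cell held 44% of its 32 WT UMIs. Ifitm6 was at 605 and 223 CPM, Ms4a4c at 482 and 183 CPM, and Mgst1 at 310.5 and 101 CPM in KO and WT monocytes.

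Among the 18 genes listed for nonclassical monocytes, 16 passed the floors, 1 reached 1.5-fold above and 11 reached 1.5-fold below WT. The gene higher in KO was Cebpb, a transcription factor of all myeloid cells, at 3260 CPM in KO and 1895 CPM in WT monocytes. Ace, the angiotensin-converting enzyme, was at 82.9 CPM in KO and 284 CPM in WT monocytes (-1.72, -2.17 to -1.38). Adgre4, an adhesion receptor of the EMR family, was at 102 and 327 CPM, and Nr4a1, on which these cells depend, at 252 and 572 CPM in KO and WT monocytes. Cx3cr1, the fractalkine receptor of patrolling cells, was at 47.8 and 138 CPM, and Itgal, a chain of the integrin LFA-1, at 171 and 339 CPM. These differences moved with the weight of the ranges: at equal weight the ratio of Ace was -0.46 and that of Itgal -0.19. Among cells with no UMI of Ly6c2 or Chil3, Ace was higher in KO, at 372 CPM against 209 CPM in WT monocytes.

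Genes of conventional dendritic cells were lower in KO monocytes in 5 of the 6 listed genes that passed the floors. Mgl2, a galactose-binding lectin of dendritic cells and macrophages, was at 0.605 CPM (1 UMI) in KO and 254 CPM in WT monocytes, and was seen in 7 WT cells. Cd209a was at 55.1 CPM in KO and 287 CPM in WT monocytes. Siglech, of plasmacytoid dendritic cells, had no UMI in KO monocytes and was at 88.6 CPM in WT monocytes, where 1 of 2 cells held 79% of it. A few WT cells decide these values. Without members holding at least 2 UMIs of the 10 defining dendritic genes, which left 98 KO and 33 WT cells, the log2 ratio of H2-Aa was -2.91. Wider dendritic lists left 5 KO and 2 WT cells, too few to describe a library, and the ratio was then 2.86.

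Gene lists by function are taken next in the order of what a monocyte meets: vessel and signal, microbe, antigen, and tissue. Over all 4141 genes 17.5% reached 1.5-fold above and 18% reached 1.5-fold below WT. A list with counts near these shares is not set apart by them. Chemokine receptors and homing molecules split, with 6 of 16 at least 1.5-fold higher, 4 lower and a median of 0.05. Ccr1, a receptor for inflammatory chemokines, was at 651 CPM in KO and 94.7 CPM in WT monocytes, with 42% of the WT UMIs in 1 cell. Cxcr4, the marrow-retention receptor, was at 198 and 186 CPM in KO and WT monocytes. Icam1, the partner of LFA-1, was at 40.6 CPM in KO and 134 CPM in WT monocytes (-1.61, -2.30 to -1.15). Growth factor and cytokine receptors had 4 of 14 higher and 0 lower, with a median of 0.34. Csf3r, the receptor for G-CSF, led them at 216 and 67.2 CPM and is also a neutrophil gene.

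Of the 3 lists of receptors and enzymes that deal with microbes, each had more genes higher than lower in KO monocytes. Of the pattern recognition genes 8 of 16 were at least 1.5-fold higher and 2 lower, with a median of 0.60. Clec4e, or Mincle, a receptor for mycobacterial cord factor, was at 1098 CPM in KO and 324 CPM in WT monocytes (1.75, 1.48 to 2.06), and Trem1, which amplifies such signals, at 271 and 48.9 CPM. Fc and complement receptors had 8 of 13 higher, 0 lower and a median of 0.91. Among them C5ar1, the C5a receptor, was at 208 and 48.9 CPM (1.98, 1.37 to 2.91) and the inhibitory receptor Pirb at 539 and 202 CPM (1.40, 1.06 to 1.80). Granule and antimicrobial genes had 9 of 16 higher, 2 lower and a median of 0.92. Slpi, a protease inhibitor, was at 1456 and 101 CPM with 61% of the WT UMIs in 1 cell, and Lyz1, at 1.82 and 254 CPM, had 96% in 1 WT cell. The oxidase subunit Ncf4 was at 401 CPM in KO and 125 CPM in WT monocytes (1.64, 1.22 to 2.17).

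Neutrophil transcripts moved with these 3 lists. In T cells, the pattern recognition genes summed to 1467 CPM in the KO library and 83.5 CPM in the WT library, Fc and complement receptors to 782 and 80.9 CPM, and granule genes to 12831 and 1741 CPM. Without the 14 KO monocytes rich in S100a8, S100a9 and Retnlg the medians were 0.50 for pattern recognition, 0.82 for Fc and complement receptors and 0.60 for granule genes. Without members holding at least 3 UMIs of the wider neutrophil list, which left 32 KO and 40 WT cells, they were 0.12, 0.41 and 0.12. The part of neutrophil RNA in these lists was not tested further.

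Antigen presentation was lower in both classes. Of the class II list 0 of 9 genes were at least 1.5-fold higher and 6 lower, with a median of -2.16, and the co-stimulatory genes Cd86 (-0.19) and Cd80 (0.50) and the protease Ctss (0.11) lay nearer 0. Of the class I list 0 of 9 were higher and 7 lower, with a median of -0.82. B2m, the light chain of class I, was at 1618 CPM in KO and 2647 CPM in WT monocytes (-0.71, -0.82 to -0.60), and H2-K1, a heavy chain, at 474 and 889 CPM. Nlrc5, the activator of class I genes, was at 27.8 and 82.5 CPM (-1.41, -2.28 to -0.82), whereas Ciita, that of class II genes, stayed under the floors at 10.9 and 15.3 CPM. Class I genes are many and alike, so single members such as H2-Q7 are uncertain. Among cells with no UMI of Ly6c2 or Chil3 the class I median was 0.10, so that this difference was not seen in every range.

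Genes that interferon induces split, with 6 of 17 higher, 5 lower and a median of 0.00. Bst2, or tetherin, was at 63.0 CPM in KO and 193 CPM in WT monocytes (-1.54, -2.08 to -1.14), and Ifi209 at 269 and 91.7 CPM. Inflammatory cytokines gave 5 of 13 higher and 3 lower. Il1b, the secreted interleukin-1 beta, was at 3639 CPM in KO and 2836 CPM in WT monocytes, and Tnf was low in both, at 23.6 and 79.5 CPM. Osm, an IL-6 family cytokine, was at 107 and 21.4 CPM (2.09, 1.25 to 3.66), and Ptgs2, the inducible cyclooxygenase, at 317 and 82.5 CPM (1.88, 1.38 to 2.56). Feedback genes of NF-kB had 3 of 16 higher and 6 lower, among them Nfkb1 at 418 and 1024 CPM. Genes that tissue digestion induces had 1 of 16 higher and 6 lower, with Hspa1a at 22.4 CPM in KO and 91.7 CPM in WT monocytes and Fos at 1520 and 1039 CPM.

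Matrix and repair genes were the list furthest above 0 in KO monocytes, with 9 of 12 at least 1.5-fold higher, 2 lower and a median of 1.92. Several of them, among them Thbs1, F13a1, F10, Vcan and Fn1, are also classical monocyte genes. Fn1, fibronectin, was at 887 CPM in KO and 281 CPM in WT monocytes (1.64, 1.35 to 1.98), and Tgfbi, a matrix protein that TGF-beta induces, at 700 and 220 CPM (1.65, 1.33 to 2.03). Mmp8, a collagenase of neutrophils, was at 504 and 9.17 CPM and was seen in 77 KO cells. The genes lower in KO were Plau, the urokinase plasminogen activator, at 2.42 and 79.5 CPM, and Sdc4 at 40.6 and 162 CPM, each with over 50% of the WT UMIs in 1 cell.

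Metabolic and housekeeping lists went both ways. Glycolysis and hypoxia genes had 7 of 16 higher and 1 lower, with Hif1a, the hypoxia factor, at 593 CPM in KO and 235 CPM in WT monocytes (1.31, 1.00 to 1.69) and the pyruvate kinase Pkm at 699 and 232 CPM. Hk2 was the lower one, at 41.2 and 110.0 CPM. Iron and heme genes had 3 of 7 higher and 1 lower. Hmox1, which breaks down heme, was at 470 and 33.6 CPM (3.62, 2.96 to 4.81), with 31% of the KO UMIs in 1 cell, and Fth1, the ferritin heavy chain, at 6698 and 2946 CPM (1.18, 1.09 to 1.28). Lysosome genes had 7 of 20 higher and 1 lower, led by the cathepsin Ctsl at 397 and 82.5 CPM. Lipid handling genes had 5 of 15 each way, with the scavenger receptor Msr1 at 657 and 193 CPM and Cd36 at 160 and 633 CPM. Ribosome biogenesis genes had 1 of 9 higher and 6 lower with a median of -0.69, sterol synthesis genes 0 of 5 higher and 3 lower with a median of -0.72, and nuclear genes of oxidative phosphorylation 0 of 21 higher and 3 lower.

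Cell cycle genes were lower in KO in all 5 of the 18 listed genes that passed the floors. Mki67 was at 9.08 CPM in KO and 134 CPM in WT monocytes, with 57% of the WT UMIs in 1 cell, and Top2a at 4.84 and 125 CPM, with 73% in 1 cell. Those values describe a few WT cells. Lineage factors split 4 higher and 4 lower of 19, near the 17.5% and 18% over all genes. Bhlhe40 was at 41.2 CPM in KO and 235 CPM in WT monocytes (-2.38, -3.01 to -2.03). Spi1, which encodes PU.1, was at 623 and 465 CPM (0.42) and Irf8 at 66.6 and 82.5 CPM (-0.29).

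**Figure D4:**
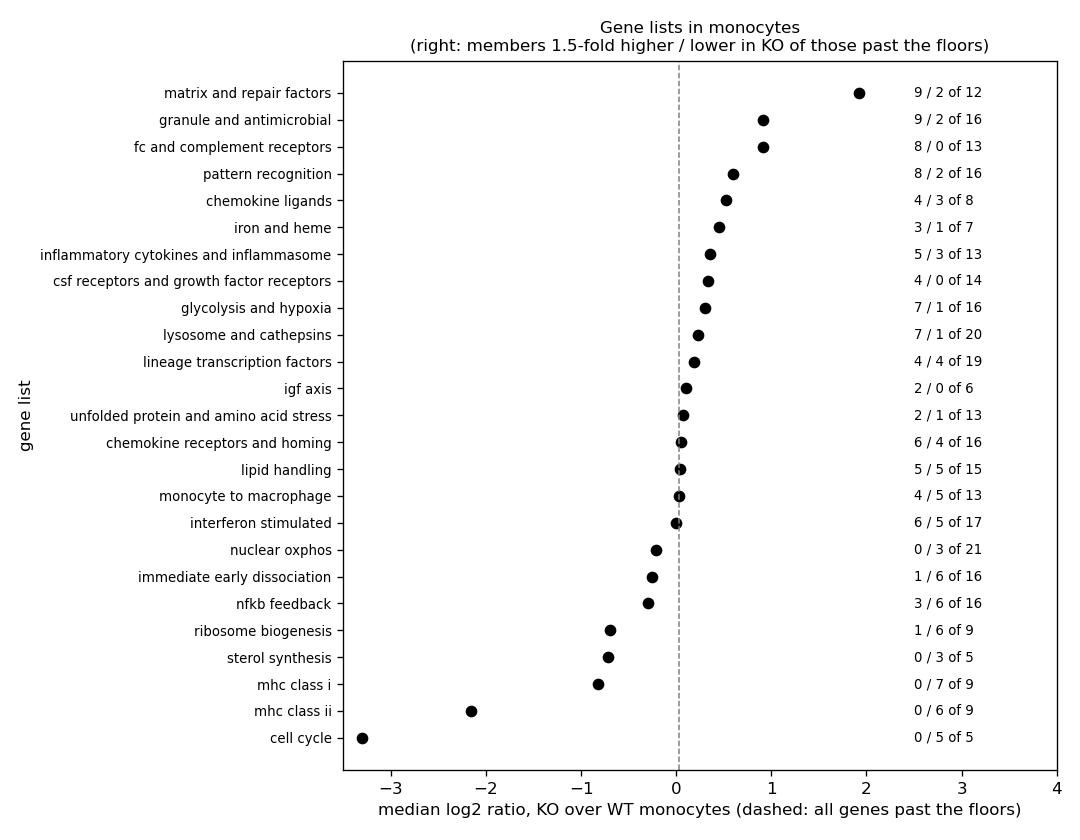
Median log2 ratio of KO over WT monocytes (x axis) of each functional gene list (y axis), with the median of all 4141 genes at the dashed line, and at the right the number of genes at least 1.5-fold higher and lower in KO of those past the floors. Matrix and repair genes lie at 1.92, granule genes at 0.92, class I at -0.82, class II at -2.16 and cell cycle, from 5 genes, at -3.31.

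The growth factor axis named in the title of the study was nearly silent in monocytes on the ligand side. Igf1, which encodes IGF-I, had no UMI in 118 KO or 45 WT monocytes, which with the limit of 3 counts allows up to 1.82 CPM in KO and 9.17 CPM in WT monocytes. Resident macrophages held 23.4 CPM of Igf1 in the KO library and 130 CPM in the WT library, at least 12.9-fold and 14.1-fold above the monocyte limits, and the remaining kept barcodes 61.4 and 126 CPM. These 3' tags do not show which part of the gene was removed, so they give no check of the genotype labels. Igf1r, the IGF-I receptor, was at 158 CPM in KO and 79.5 CPM in WT monocytes (0.95, 0.41 to 1.63). It was at 212 and 207 CPM in KO and WT macrophages. Of the IGF axis list 2 of 6 genes were at least 1.5-fold higher in KO and 0 lower.

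Against resident macrophages, monocytes of both libraries had higher levels of 7 of 13 granule genes and 7 of 15 homing genes, and lower levels of 14 of 15 chemokines, each by at least 1.5-fold. Among 3666 genes that met the floors in both libraries, 208 (5.67%) reached 2-fold above macrophages in both libraries and 336 (9.17%) reached 2-fold below. The rule that chose both cell sets used C1qa, C1qb, C1qc, Mrc1, Ccr2, Chil3, Ly6c2 and Csf1r, so this contrast is a description. Macrophages held a median of 8957.5 UMIs in the KO library and 4685 in the WT library.

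Hp and Plac8 stood first among the genes higher in monocytes, with smaller ratios of both libraries that round to the same 5.16 on the log2 scale. Plac8 was higher by 5.16 in the KO library and 6.48 in the WT library. Hp was at 1205 CPM in monocytes and 16.0 CPM in macrophages of the KO library, and in the WT library at 174 CPM in monocytes and without a UMI in macrophages, at least 53.3-fold higher. Ace had no UMI in macrophages of either library and was at least 22.4-fold higher in KO monocytes and 86.9-fold higher in WT monocytes. Itgal was higher by 3.83 and 5.38, Thbs1 by 4.22 and 3.90, and Gsr, the glutathione reductase, by 3.98 and 4.08 in the KO and the WT library. Runx2, better known from bone, was higher by 3.52 and 3.76, and Apoc2, a lipoprotein cofactor, by 3.98 and 3.44. In the KO library 1 macrophage held 92.5% of the macrophage UMIs of Thbs1, 100% of those of Hp and 66.7% of those of Apoc2. Pglyrp1, Sirpd and Treml4 were also among the 12. Ace, Treml4, Itgal and Apoc2 are listed as nonclassical genes and Hp and Thbs1 as classical ones. Several of the 12 are not particular to monocytes. In KO and WT neutrophils Pglyrp1 was at 960 and 724 CPM, Gsr at 1311 and 2886 CPM and Itgal at 326 and 532 CPM, each above monocytes. Runx2 was at 117 and 125 CPM in T cells, against 152 and 107 CPM in monocytes. Plac8, Ace, Sirpd and Apoc2 were lower in neutrophils than in monocytes of both libraries.

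Genes lower in monocytes than in macrophages began with P2ry6, a receptor for the nucleotide UDP, by -3.17 in the KO library and -3.26 in the WT library. Selenop, a selenium carrier of tissue macrophages, was at 160 CPM in monocytes against 1117 CPM in macrophages of the KO library, and at 162 against 1881 CPM in the WT library. Rbpj, the transcription factor of Notch signalling, was lower by -3.02 and -2.30, and Ifih1, the RNA sensor MDA5, by -3.05 and -2.92. Fnip2, Spred1, Zdhhc14, Aoah, Adap2, Man1a, Pcyt1a and Cttnbp2nl completed the 12. All 19 genes of the resident macrophage list that met the floors were at least 1.5-fold lower in monocytes of both libraries. C1qa, C1qb, C1qc and Mrc1 of that list are genes of the rule, so their direction was fixed by the choice of cells. Over all 3666 genes 15% lay 1.5-fold or more above macrophages in both libraries and 14.8% below.

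Chemokines were the function list with the plainest separation, with 14 of 15 genes at least 1.5-fold lower in monocytes of both libraries and 0 higher. Ccl2, the ligand of CCR2, was at 20.6 CPM in monocytes against 1274 CPM in macrophages of the KO library, and at 27.5 against 1049 CPM in the WT library. Cxcl2, which draws neutrophils, was at 703 against 11446 CPM in the KO library and 220 against 7819 CPM in the WT library. Ccl6 was the gene that stayed within 1.5-fold, by -0.08 and -0.49. Of the granule and the homing genes, 0 were lower in both libraries. Class II genes were lower in both libraries in 6 of 10, but by a median of -2.22 in the KO library and -0.77 in the WT library.

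Outside the lists, the genes that most set monocytes apart from all remaining kept barcodes in both libraries, ranked by the smaller of the 2 ratios, were Ms4a6c, Clec4a3, Klra2, Ms4a4a, Coro1a, Cytip, Alox5ap, Mpeg1, Cd244a and Mefv. Several of them are as abundant in other immune cells. Alox5ap, a partner of 5-lipoxygenase, was at 1153 CPM in monocytes against 1864 CPM in neutrophils of the KO library, and at 642 against 1356 CPM in the WT library. Klra2 was at 291 against 355 CPM in the KO library and 226 against 399 CPM in the WT library. Coro1a was at 776 CPM in WT monocytes against 840 CPM in WT neutrophils, and Mefv at 162 against 216 CPM. Ms4a6c, a membrane-spanning protein of myeloid cells and near 0 in neutrophils of both libraries, was at 1503 CPM in KO monocytes against 17.9 CPM in the remaining barcodes, and at 682 CPM in WT monocytes against 20.5 CPM. Clec4a3, a lectin receptor, was close in level between the libraries, at 289 CPM in KO and 306 CPM in WT monocytes (-0.08, -0.40 to 0.24). Cytip, which controls adhesion through cytohesin, was seen in all 118 KO cells and in 42 of 45 WT cells, and was at 1819 CPM in monocytes against 1094 CPM in T cells of the KO library. Mefv, which encodes pyrin, an inflammasome sensor, was at 329 CPM in KO and 162 CPM in WT monocytes.

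**Figure D5:**
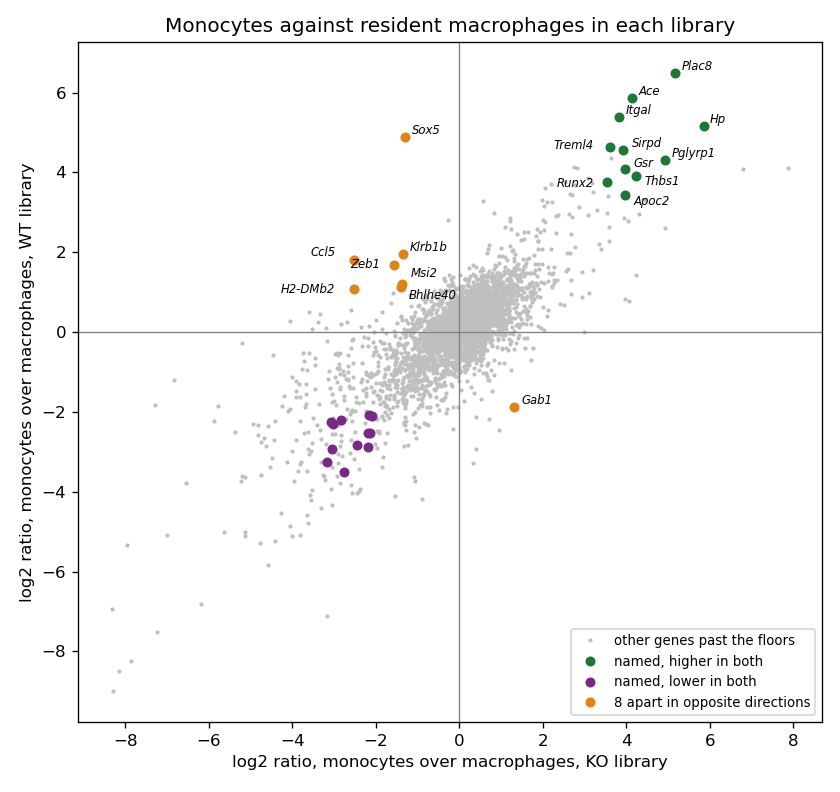
Log2 ratio of monocytes over resident macrophages in the KO library (x axis) and in the WT library (y axis) for 3666 genes, with 5 CPM added to each level. The genes named as higher in both libraries lie at the upper right, Plac8 at 5.16 and 6.48, and 8 genes lie at least 2-fold apart in opposite directions, 7 of them lower in KO monocytes and higher in WT monocytes than in macrophages.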

How the data were processed

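Single-cell RNA libraries of digested TA muscle were used, 1 per genotype (KO and WT). The deposited values are raw UMI counts, given for each gene in each barcode and not normalised. The authors' counting tool was Cell Ranger, version 9.0.0 on mm10 per the submitters' processing notes, 9.0.0 in the KO and 8.0.0 in the WT library per the file headers. The settings behind the barcodes deposited (19531 KO, 11360 WT) are not given in the sources used here, and the version difference cannot be told apart from genotype.

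Barcodes with at least 500 genes, 1000 UMIs and at most 10% mitochondrial UMIs were kept. Counts were summed over the cells of a type and scaled to CPM. Log2 ratios carry a pseudocount of 5 CPM, which understates changes of low genes, and exact conditional binomial intervals. Shares have Clopper-Pearson intervals. Intervals and the floor of 3 counts cover counting error only. Genes with at least 50 CPM in 1 group and 30 UMIs over both were compared, and a gene at least 2-fold apart was called, 1.5-fold for list members. No test was made between genotypes. No doublet caller was run, and the effect of leaving out deep or mixed members is given below. T cells had at least 2 UMIs of Cd3d, Cd3e and Cd3g, and neutrophils at least 10 of S100a8, S100a9, Retnlg and Csf3r.

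Named genes were the 12 furthest each way by the interval bound nearest 0 (against macrophages, by the smaller ratio of both libraries), with no cell holding over 25% of either library's UMIs and without mitochondrial, ribosomal, haemoglobin and predicted genes or genes over 5 times higher in other barcodes, plus up to 4 members of each list. List members beyond these, namely Ccl6, Cd80, Cebpb, Ciita, Clec4e, Ctss, Cx3cr1, Cxcl2, Cxcr4, Fn1, Fos, Gpr141, Icam1, Il1b, Irf8, Lyz2, Mgst1, Ncf4, S100a4, S100a6, Spi1, Tgfbi and Tnf, were chosen after their values were seen. The members, the 25 functional and 18 cell type lists and the rule were chosen with earlier results of these data known. Some genes that met the rule are not reported here. Columns of other samples numbered 0. Tools were Python 3.11.15, numpy 2.4.6, scipy 1.17.1, pandas 2.3.3, matplotlib 3.10.9 and R 4.3.3 with edgeR 4.0.16, used for TMM factors alone. The ratios were tested on simulated counts.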

Additional observations from a re-analysis of the deposited data

Results flagged for a closer look

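At least a 2-fold difference between monocytes and resident macrophages, in opposite directions in the KO and the WT library, was found for 8 genes. The difference between the libraries was not tested, since each genotype has 1 library. Log2 ratios of monocytes over macrophages are given for the KO library and then for the WT library.

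Bhlhe40, a transcription factor of activated myeloid cells, was at -1.4 in the KO library and 1.13 in the WT library, with no cell holding over 16.2% of its monocyte UMIs. H2-DMb2, of the class II peptide loader, was at -2.52 and 1.07, and the top WT monocyte held 42.1% of its UMIs. It rested on 12 KO and 19 WT monocyte UMIs, and 1 KO macrophage held 49.1% of its KO macrophage UMIs. Zeb1, a transcription factor, was at -1.57 and 1.69, with 24.3% in the top WT monocyte and 47.2% in the top KO macrophage. Gab1, a docking adaptor of growth factor receptors, was the gene with the opposite order, at 1.31 in the KO library and -1.88 in the WT library. Its WT value rested on 11 monocyte UMIs in 7 cells, with 27.3% in the top cell.

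In the remaining 4 genes a single monocyte held over 50% of the UMIs of a library. Sox5 was at -1.3 and 4.88, with 82.1% of the WT UMIs in 1 cell. Klrb1b was at -1.36 and 1.94, with 61.0% of the KO UMIs in 1 cell. Ccl5 was at -2.54 and 1.82, with 75% of the KO and 59.8% of the WT UMIs in 1 cell. Msi2 was at -1.37 and 1.2, with 50.9% of the WT UMIs in 1 cell.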

How the results depend on the processing

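No paired analysis was possible because each genotype has 1 library. Of 24 alternatives, those in which members were left out by range, by at least 10 neutrophil UMIs or by defining dendritic genes, and the equal weight of ranges, were chosen after seeing the data. Counts are given as genes 2-fold higher and lower in KO, then 2-fold higher and lower in monocytes than in macrophages. Other counts stayed within 1.5 times the main ones. Ratios of single genes often left their counting intervals, which do not cover the choice of processing. Of 24 settings, the ratio of Cd74 left its interval in 16 and ran from -6.34 to -0.97. That of H2-Ab1 did so in 15, of Tnip3 in 13 and of Thbs1 in 11, but those of F10 and Bcl2a1b in 4.

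Without members that hold at least 3 UMIs of other lineages (10 KO and 11 WT cells left), 95 genes were higher and 61 lower in KO, monocytes were 0.0567% of KO and 0.113% of WT barcodes, and 50% of KO cells had at least 3 UMIs of Ly6c2 and Chil3. The median ratio was then -0.01 for pattern recognition and -0.21 for Fc and complement receptor genes, and Kcnn4 was at 1.79. Without members of the wider dendritic lists (5 KO and 2 WT cells left) the counts were 82 and 63, with 857 genes lower in monocytes, the shares 0.0283% and 0.0206%, and 100% of WT cells had at least 3 UMIs, with H2-Aa at 2.86, Ly6c2 at -1.31 and Ccr2 at -0.49. Without members that hold at least 3 UMIs of the neutrophil list (32 KO and 40 WT cells left), 139 genes were lower in KO. Sterol synthesis genes then had a median of 0.16. Monocytes were 0.181% of KO and 0.411% of WT barcodes, the reverse of the main order. Of KO cells 31.2% and of WT cells 30% had at least 3 UMIs of Ly6c2 and Chil3.

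With a limit of 5 UMIs for the rule, 76.9% of KO cells had at least 3 UMIs of Ly6c2 and Chil3. With members that have a UMI of either gene, 79.4% of KO and 48.3% of WT cells had at least 3, and the WT share was 0.298%. With cells thinned to 2000 UMIs, 101 genes were lower in KO, 138 were higher in monocytes, and sterol synthesis was at 0.51. With 10 UMIs as the sole floor the counts were 883, 892, 388 and 529, and with 200 CPM and 100 UMIs they were 116, 73, 67 and 156. Among cells with at least 3 UMIs, 524 genes were higher in KO, the shares were 0.459% and 0.144% and the cell cycle median was 0.93. Among cells with none, 206 were lower in KO, 107 were higher in monocytes, the shares were 0.0906% and 0.164%, and medians or ratios were 0.10 for class I, 0.19 for sterol synthesis, 0.81 for Ace and 0.78 for Adgre4. The cause of these changes was not tested beyond the smaller number of cells or genes each setting leaves.

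Depth limits WT monocytes most: a gene with no UMI there may still reach 9.17 CPM, against 1.82 CPM in KO monocytes.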

Other observations

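Genes that accompany the change of monocytes into macrophages were low in both libraries' monocytes, where 19 of 21 were at least 1.5-fold lower than in resident macrophages and 0 higher. C1q and Mrc1 of that list are genes of the rule. Cd63, a tetraspanin of late endosomes, was at 35.7 CPM in KO monocytes against 498 CPM in KO macrophages, and at 70.3 against 568 CPM in the WT library. Apoe, the lipid carrier, was at 1067 CPM in KO and 1036 CPM in WT monocytes, against 3417 CPM in KO and 4583 CPM in WT macrophages.

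Stress genes of the endoplasmic reticulum were close in level between the libraries, with a median log2 ratio of 0.07. Of 13, 2 were at least 1.5-fold higher in KO and 1 lower, against 17.5% and 18% over all genes. Manf, a secreted stress protein, was at 233 CPM in KO and 131 CPM in WT monocytes (0.80, 0.37 to 1.32), and Slc7a11, the cystine transporter, at 404 and 229 CPM. Among feedback genes of NF-kB, Ier3 was at 668 CPM in KO and 174 CPM in WT monocytes (1.91, 1.55 to 2.35), while Tnfaip3, which encodes A20, was at 111 CPM in KO and 269 CPM in WT monocytes (-1.24, -1.65 to -0.90). In both libraries 13 of 16 of these genes were at least 1.5-fold lower in monocytes than in macrophages.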
